A study of Mus musculus with 12 samples.

Results

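Rab proteins are small GTPases that label the membranes of the secretory and endocytic pathways, and 44 genes of this family were followed over a pigmentation cycle of B16 cells. Members were the genes whose annotated symbol is Rab, a number and at most 1 letter, with at least 1 probe detected (detection p under 0.05) on 2 or more of the 12 arrays. Rab27a, Rab32 and Rab38, which serve melanosomes, were left out of the group and kept as references. Of 56 Rab symbols on the array with 108 probes, references not counted, 44 met this rule, and they are 44 of the 11470 genes tested. The 12 symbols that did not were Rab2b, Rab3b, Rab3c, Rab25, Rab26, Rab27b, Rab33a, Rab37, Rab39, Rab40b, Rab42 and Rab44.

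B16 is an established mouse melanoma line that makes melanin in culture, and it was the only line used, grown in all groups in DMEM with fetal calf serum. There were 6 groups with 2 arrays each, labelled set 1 and set 2, which the series calls consecutive cycles. Cells of days 4, 8 and 12 carried the label pigmented, and those of days 0, 16 and 20 the label depigmented. By the protocol in the labels, cells seeded at 100 cells per cm2 were collected on days 4, 8 and 12, and cells plated at 10000 cells per cm2 on day 12 were collected on days 16 and 20. A density label on each array departs from that protocol: it gives 10000 for day 8 and day 20, 100 for day 4 and day 16, and 1 of each for day 0 and day 12. Pigmentation, time in culture and plating therefore cannot be told apart. Apart from the word cycles, no label states that set 1 and set 2 were grown separately, and the p-values then rest on a spread that may be technical.

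As background, a Rab switches between a GTP-bound form that recruits effectors to one kind of membrane and a GDP-bound form held in the cytosol by a dissociation inhibitor. Exchange factors switch it on, GTPase-activating proteins switch it off, and prenyl groups anchor it. Melanosomes, the pigment organelles, are built from endosomes: Rab32 and Rab38 bring melanin enzymes to them, and Rab27a with melanophilin and myosin Va holds them at the actin cortex. The other Rabs run the general traffic that melanosome cargo passes through, from the endoplasmic reticulum (ER) and Golgi to endosomes, lysosomes and the cell surface.

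Counts of detected probes were alike across the arrays, but the mean signal was not. It was lowest on the 2 day 20 arrays, at 269.9 and 273, and highest on set 2 of day 4, at 440.8. Between 18508 and 19780 of 45281 probes were detected per array, the mean signal lay between 269.9 and 440.8, and 40 to 43 of the 44 members were detected on each array. Set 1 and set 2 of the same day had a correlation of 0.9953 to 0.9965 over genes after normalization, which is a correlation across genes that are not independent replicates. All 7 melanocyte markers checked (Tyr, Tyrp1, Dct, Pmel, Mlana, Mitf and Sox10) were detected on all 12 arrays. Of the markers of other cell types, 2 of 5 leukocyte, 3 of 5 fibroblast, 1 of 4 keratinocyte and 1 of 4 endothelial genes on the array were measured, and none of these was detected on all 12. The summed linear level of the 3 measured fibroblast markers (Col1a1, Pdgfra and Pdgfrb) was 230.2 to 241.7 on day 0. It was 67.3 to 74.6 on days 4 and 8, 99.8 to 107.6 on day 12, 167.3 to 177.3 on day 16 and at most 102.1 on day 20. The sums of days 4 and 8 were near background. The 3 genes read 4.32 to 4.91 in log2 on these days, where the lowest detected signal was 4.852 to 4.929. Col3a1 and Dcn, also fibroblast genes, were detected on no array. The 2 measured leukocyte markers moved apart. In log2 intensity Lyz2 read 5.75 and 5.68 on day 0 and 4.99 to 5.52 on days 4 and 8. Fcer1g read 4.99 and 4.87 on day 0 and 6.27 to 6.38 on days 4 and 8. On the linear scale the 2 markers summed to 80.5 to 85.6 on day 0 and 112.2 to 127.5 on days 4 and 8. Their sum was 72.3 to 90.4 on days 12 and 16 and 45.6 to 45.8 on day 20, and Ptprc, Cd3e and Itgam were detected on no array. Values below are normalized log2 intensity of the brightest detected probe of a gene, changes are differences of day means on that scale with their standard error (SE, n = 2 arrays per day), and levels of different genes are not compared because each probe has its own brightness.

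Nearly the whole family changed over the 6 days, and so did most genes in these cells. Of 44 members, 43 passed the limma F test at an adjusted p of 0.05, and Rab20, a Rab of endosomes and phagosomes, did not (adjusted p = 0.164). The share over all genes tested was 84.7%, so the count of changing members says little about Rabs in particular. The range of day means had a median of 1.02 in the members and 0.989 over all genes, and it reached 2-fold in 23 members (52.3%) against 49.4% of all genes. In RNA from whole cultures, fewer cells with a transcript and less transcript per cell cannot be told apart.

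Against day 0, more members were lower than higher on days 4, 8, 16 and 20. On day 4, 13 members rose and 22 fell where 63.5% of all genes were called, 29.5% higher and 34% lower. On day 8, 13 rose and 22 fell, against 63.1% of all genes called, 29.3% higher and 33.9% lower. Day 12 had 14 members higher and 14 lower (52.3% of all genes called, 22.8% higher and 29.5% lower). Day 16 had 11 higher and 15 lower (47.6% called, 20.9% higher and 26.6% lower). On day 20, 12 rose and 24 fell, where 68% of all genes were called, 29.3% higher and 38.7% lower. The median change of the members was -0.262, -0.275, -0.0909, -0.214 and -0.363 on days 4, 8, 12, 16 and 20, beside -0.0381, -0.0356, -0.0555, -0.0537 and -0.114 over all genes. These medians moved with the processing: with arrays centred on medians they were -0.0566, -0.1, -0.158, -0.288 and -0.559 in the same order of days. With the authors' value table, its values below 16 set to 16, the day 12 median was -0.0123 and the day 20 median -0.129. With the mean of probes day 4 had -0.17, day 8 -0.102, day 12 0.0037 and day 20 -0.169. Without background correction the day 16 and day 20 medians were -0.139 and -0.206. Comparisons with day 0 share its 2 arrays.

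The split into higher and lower members depended on how arrays were scaled. With arrays centred on their medians, which moved the median of all genes from -0.114 to -0.299 on day 20 and from -0.0537 to -0.109 on day 16, the split was 12 higher and 12 lower on day 4, 12 and 12 on day 8, and 7 and 26 on day 20. With the authors' value table it was 15 and 9 on day 12, and with the mean of all detected probes of a gene it was 17 and 18 on day 8. All 58 fitted member changes of at least 2-fold, in 21 members over the comparisons between days, kept their direction and their call under each of the 22 alternatives that measured the gene. They were chosen by size and call in these same arrays, Rab30 included, so this is not independent support. Fits without the intensity trend, or with a term for the set, leave fitted changes as they were and can alter only calls. Sizes of the 58 changes moved in some other alternatives: Rab1b on day 4 was 1.198, and 0.351 with the mean of its probes.

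**Figure D1:**
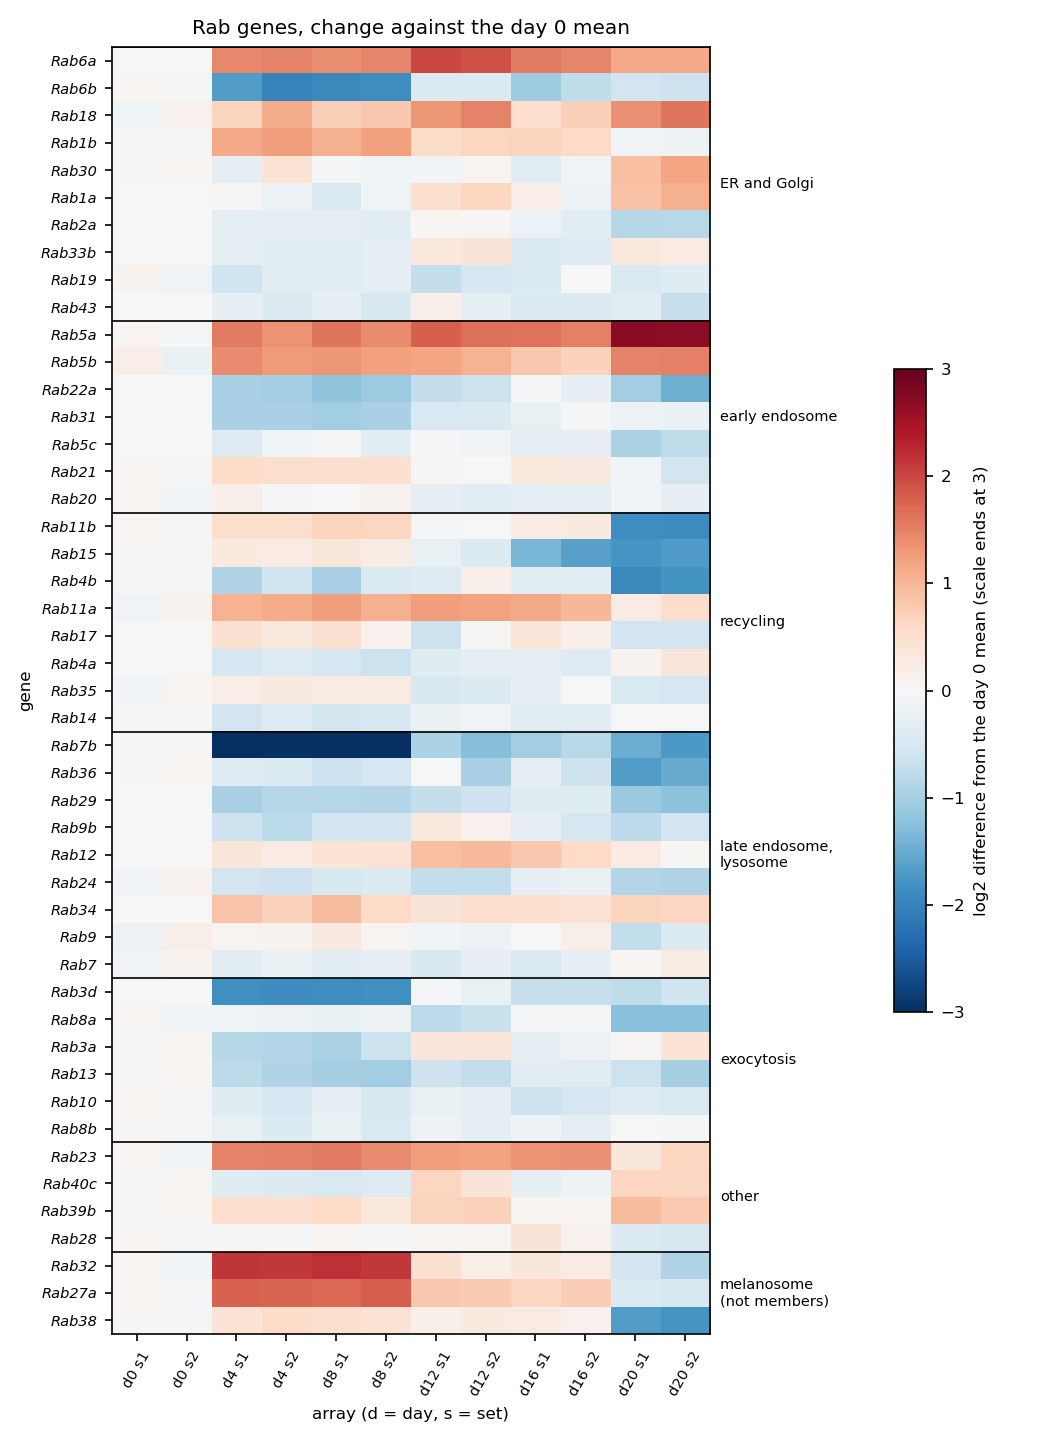
Each row is a gene, grouped by role, and each column is 1 of the 12 arrays (day and set). Colour is the log2 difference from the gene's own day 0 mean, red for higher and blue for lower, with the scale ending at 3. The 2 arrays of a day match closely, Rab7b is off the scale on days 4 and 8, and neighbouring rows of a role often differ in colour.

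Among the 10 measured Rabs of the ER and Golgi, the pair Rab6a and Rab6b moved apart. Probes of Rab6a, which drives transport from and back to the Golgi, had opposite calls on days 4, 8 and 16. By its brightest probe Rab6a rose on every later day, with its highest level on day 12. Its log2 intensity in sets 1 and 2 was 8.36 and 8.40 on day 0, 9.81 and 9.88 on day 4, 9.77 and 9.84 on day 8, 10.39 and 10.30 on day 12, 9.90 and 9.85 on day 16 and 9.51 and 9.52 on day 20. Every later array lay above both day 0 arrays, and the changes were 1.42 ± 0.076 (adjusted p = 7.74e-13) on day 8 and 1.97 ± 0.076 (adjusted p = 1.34e-14) on day 12. Rab6b, the relative known from neurons, fell on every later day and most on days 4 and 8. It read 8.89 and 8.75 on day 0, 7.15 and 6.81 on day 4, 6.88 and 6.97 on day 8, 8.42 and 8.41 on day 12, 7.77 and 8.06 on day 16 and 8.25 and 8.21 on day 20. The 4 arrays of days 4 and 8 were the lowest, with a change of -1.90 ± 0.12 (adjusted p = 1.7e-11) on day 8, and the day 12 mean lay -0.41 from day 0, a call lost with the authors' value table (-0.361).

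Rab18, a Rab of the ER and of lipid droplets, rose on all 5 later days. Its arrays read 7.41 and 7.66 on day 0, 8.20 and 8.64 on day 4, 8.24 and 8.34 on day 8, 8.86 and 9.02 on day 12, 8.05 and 8.25 on day 16 and 8.90 and 9.13 on day 20. Days 12 and 20 were the highest, at 1.40 ± 0.13 (adjusted p = 1.44e-08) and 1.48 ± 0.13 (adjusted p = 1.8e-09), and no later array fell within the day 0 pair. Rab1b, which controls ER to Golgi transport, rose by 1.20 ± 0.10 on day 4 and 1.14 ± 0.10 on day 8 (adjusted p = 2.61e-09) and was -0.13 on day 20, not called. Its close relative Rab1a was not called on days 4 and 8 and rose by 0.97 ± 0.13 on day 20, with arrays from 7.88 to 9.36. Rab2a, which acts between Golgi and ER, fell by 0.84 on day 20, and Rab33b, a Golgi Rab with a part in autophagy, changed by -0.30 on day 8 (call lost at -0.205 with arrays centred on medians) and 0.28 on day 20, which turned to -0.122, not called, in that setting. Rab43, another Golgi Rab, was lower on 4 of the 5 days, with changes down to -0.52. Its calls were lost with arrays centred on medians on days 4 and 8 (-0.238 and -0.266), with the authors' value table on days 4, 8 and 16 (-0.388, -0.41 and -0.403) and with the mean of its probes on days 8 and 16 (-0.117 and -0.16), and that mean was 0.155, not called, on day 20.

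Rab30 and Rab19, both Golgi Rabs, were close to background. Rab30 was detected on only 3 arrays, including both of day 20, where it read 5.53 and 5.81 and was at least 1.72-fold higher than on day 0. It met the detection rule through day 20, so no p-value is given for it, and its place among the members higher on day 20 supports nothing. Such a bound sets the mean of the detected day against the higher of the lowest detected signal and the probe's own value on the other day. Counts of members called, here and over the family, include both genes. Rab19 was detected on 3 arrays, 2 of them of day 0, and ranged from 4.30 to 5.13. It met the detection rule through day 0, so its place among the changed members and among those lower than day 0 supports nothing. Over the 10 genes, 3 rose and 4 fell on day 8 (median -0.28), and 5 rose and 4 fell on day 20 (median 0.0778). The shares over all genes were 29.3% higher and 33.9% lower on day 8, and 29.3% and 38.7% on day 20.

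Early endosome Rabs held the largest rise of the family. Rab5a, which controls fusion of early endosomes, read 7.59 and 7.46 on day 0, 9.08 and 8.88 on day 4, 9.14 and 8.94 on day 8, 9.33 and 9.18 on day 12, 9.15 and 9.04 on day 16 and 10.24 and 10.21 on day 20. All 10 later arrays lay above both day 0 arrays, and both day 20 arrays lay above all the others. The change was 1.45 ± 0.097 (adjusted p = 2.72e-11) on day 4, 1.51 ± 0.097 (adjusted p = 1.46e-11) on day 8, 1.73 ± 0.097 (adjusted p = 5.27e-12) on day 12, 1.57 ± 0.097 (adjusted p = 5.01e-11) on day 16 and 2.70 ± 0.097 (adjusted p = 7.24e-16) on day 20. With the mean of its 3 detected probes the change was 0.839 on day 8 and 1.58 on day 20 (1 of the 3 changed by -0.022 and 0.182).

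Rab5b, a close paralog, also rose on all later days. Its arrays read 6.04 and 5.65 on day 0, 7.26 and 7.12 on day 4, 7.17 and 7.08 on day 8, 7.01 and 6.88 on day 12, 6.65 and 6.54 on day 16 and 7.34 and 7.35 on day 20. Later arrays were all above both day 0 arrays, with changes of 1.28 ± 0.14 (adjusted p = 6.35e-08) on day 8 and 1.501 ± 0.14 (adjusted p = 4.23e-09) on day 20. Rab5c, the other paralog, did not follow: its changes on days 4 to 20 were -0.25, -0.20, -0.07, -0.25 and -0.86, called lower on days 4, 16 and 20. The day 4 call was lost with arrays centred on medians (-0.071) and with the authors' value table (-0.217), and the day 16 call with that table (-0.28). The difference between paralogs was not tested.

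Rab22a, which sorts cargo from early endosomes to recycling, fell on day 8, at -1.16 ± 0.13 (adjusted p = 1.47e-07), and was -0.13, not called, on day 16, before -1.24 ± 0.13 (adjusted p = 3.9e-08) on day 20. Rab31, its closest relative, had -1.02 ± 0.072 on day 8 and -0.19 on day 20, and its 4 arrays of days 4 and 8 were the lowest of the 12. Rab21, linked to integrin uptake, rose on days 4 and 8 (0.54 and 0.48) and was -0.31 on day 20, a call lost with the authors' value table (-0.264). Rab20 was detected on 4 arrays and ranged from 4.55 to 5.03. Of these 7 genes, 3 rose and 2 fell on day 8 (median 0.0512), and 2 rose and 4 fell on day 20 (median -0.187). Beside them, 29.3% of all genes were higher and 33.9% lower on day 8, and 29.3% and 38.7% on day 20.

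Promoter sequence of the members was read from RefSeq (GRCm38.p6), 250 bases before the annotated start, for the 38 members the table lists. The E-box CACGTG, a site read by MITF and other factors of its class, was present in 4 of the 38 (10.5%, beside 6.86% of 27025 genes): Rab5a, Rab20, Rab21 and Rab23. The cyclic AMP response element TGACGTCA was present in Rab5a (2.63% of members, 1.77% of genes), and the AP-1 element TGACTCA in Rab15 and Rab34 (5.26% and 5.16%). The 27025 genes are all those with a listed promoter, detected here or not, so the shares of members and genes are not like for like. Both strands were searched, and no match overlapped another. These windows are shown because Rab5a has the largest rise of the members and Rab23 and Rab15 the largest changes among the others with a match. The motif is in capitals, and each sequence runs 5′ to 3′ on the gene's strand with up to 30 bases on each side.
Rab5a, E-box, chr17:53478984-53479034, plus strand: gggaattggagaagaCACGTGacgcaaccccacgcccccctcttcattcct
Rab5a, E-box, chr17:53479109-53479174, plus strand: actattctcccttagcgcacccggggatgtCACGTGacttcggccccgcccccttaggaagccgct
Rab5a, cyclic AMP response element, chr17:53479176-53479233, plus strand: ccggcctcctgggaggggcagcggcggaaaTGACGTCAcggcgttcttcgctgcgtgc
Rab23, E-box, chr1:33719648-33719713, plus strand: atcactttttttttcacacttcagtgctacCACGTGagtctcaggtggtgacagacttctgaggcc
Rab15, AP-1 element, chr12:76818583-76818624, minus strand: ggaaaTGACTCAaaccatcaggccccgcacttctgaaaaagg
In Rab5a the first base of the 2 E-boxes lay 235 and 95 bases before the start, and the cyclic AMP response element began 28 bases before it. The E-box of Rab23 began 218 bases and the AP-1 element of Rab15 245 bases before the start. A match in letters does not show that a factor binds there.

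Of the 8 recycling Rabs, 5 had their lowest day mean on day 20 (Rab4b, Rab11b, Rab15, Rab17 and Rab35). Over all members the share was 38.6%, and over all genes 33.8%. Rab11b, which returns cargo from recycling endosomes to the surface, read 11.15 and 11.02 on day 0, 11.60 and 11.62 on day 4, 11.75 and 11.73 on day 8, 11.03 and 11.09 on day 12, 11.31 and 11.37 on day 16 and 9.23 and 9.21 on day 20. Both day 20 arrays were far below all others, and the change was 0.65 ± 0.07 (adjusted p = 4.39e-08) on day 8 and -1.87 ± 0.07 (adjusted p = 1.3e-15) on day 20. Rab11a, its near twin in function, rose by 1.16 ± 0.13 on day 8 and 1.23 ± 0.13 on day 12 and was 0.38 ± 0.13 on day 20, called higher on all 5 days, though the day 20 call was lost with arrays centred on medians (0.134).

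Rab15, an inhibitor of early steps of endocytosis, fell between days 12 and 16. It read 6.94 and 6.89 on day 0, 7.20 and 7.16 on day 4, 7.26 and 7.13 on day 8, 6.70 and 6.51 on day 12, 5.54 and 5.28 on day 16 and 5.15 and 5.23 on day 20. The 4 arrays of days 16 and 20 were the lowest, at -1.51 ± 0.14 (adjusted p = 2.4e-08) and -1.73 ± 0.14 (adjusted p = 5.3e-10), while the changes on days 4, 8 and 12 were not called (0.27, 0.28 and -0.31). Rab4b, of the fast recycling route, read 6.97 and 7.03 on day 0, 6.10 and 6.39 on day 4, 6.02 and 6.56 on day 8, 6.61 and 7.15 on day 12, 6.65 and 6.66 on day 16 and 5.06 and 5.20 on day 20. Its day 20 arrays were the lowest, at -1.86 ± 0.19 (adjusted p = 1.05e-08), and the sets of day 8 and day 12 each differed by more than the change on day 16 (-0.34, not called).

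Rab4a, of the same route, was lower on days 4 to 16 with changes down to -0.57, and was 0.23 on day 20, not called. Its calls of days 4, 12 and 16 were lost with arrays centred on medians (-0.381, -0.366 and -0.417), and those of days 12 and 16 with the authors' value table (-0.26 and -0.296). Rab14, between Golgi and endosomes, was -0.52 on day 8, a call lost with arrays centred on medians (-0.337) and with the mean of its probes (-0.137), and 0.01 on day 20, not called. Rab35, a Rab of the plasma membrane, rose by 0.24 on day 4, a call lost with arrays centred on medians (0.358) and with the authors' value table (0.219), and had -0.47 on day 20. Rab17, known from epithelial cells and melanosome release, was detected on 9 arrays, ranged from 4.43 to 5.53 and among the comparisons with day 0 was called for day 20 alone. It was not above background on that day and at least 1.16-fold lower than on day 0, a call lost with the authors' value table (-0.053). Over the 8 genes, 3 rose and 3 fell on day 8 (median 0.264), and 1 rose and 5 fell on day 20 (median -0.523). For all genes the shares were 29.3% higher and 33.9% lower on day 8, and 29.3% and 38.7% on day 20.

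Late endosome and lysosome Rabs contained the largest change of all members. Rab7b, which acts between late endosomes and the trans-Golgi, read 8.34 and 8.41 on day 0, 4.80 and 4.66 on day 4, 4.65 and 4.53 on day 8, 7.42 and 7.10 on day 12, 7.33 and 7.53 on day 16 and 6.89 and 6.66 on day 20. It was detected on both arrays of days 0, 12, 16 and 20 and on none of days 4 and 8. It was at least 11.1-fold lower on day 4 (adjusted p = 8.63e-15) and at least 11.2-fold lower on day 8 (adjusted p = 5.02e-15) than on day 0. The fibroblast markers, near background on days 4 and 8, were lowest on those days. Rab7b, Rab3d and Rab6b were among 12 of 44 members with their lowest mean there (27.3%, beside 27.4% of all genes). The part of the markers in these changes was not tested. Later changes were -1.12 ± 0.15 (adjusted p = 2.15e-06) on day 12, -0.94 ± 0.15 on day 16 and -1.60 ± 0.15 (adjusted p = 3.94e-09) on day 20. A second Rab7b probe was also undetected on all arrays of days 4 and 8, and changed by -1.68 on day 20. Without background correction the fitted day 8 change of Rab7b was -2.18, beside -3.78 with it.

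Rab7, the main Rab of late endosomes, had changes of -0.27, -0.28, -0.36, -0.35 and 0.14 from its brightest probe, called lower on days 4 to 16, and the mean of its probes was 0.929, 0.769, 0.571 and 0.637 on those days, called higher on each. The calls of days 4 and 8 were also lost with arrays centred on medians (-0.055 and -0.059) and with the authors' value table (-0.2 and -0.197). Rab36, a Rab that binds lysosome adaptors, read 6.51 and 6.65 on day 0, 6.19 and 6.15 on day 4, 5.93 and 6.07 on day 8, 6.59 and 5.62 on day 12, 6.30 and 5.97 on day 16 and 4.90 and 5.06 on day 20. Its day 20 arrays were the lowest, at -1.60 ± 0.22 (adjusted p = 9.5e-07), and the 2 arrays of day 12 lay 0.968 apart, the widest gap between the sets of a day in any member. Rab29, linked to lysosome stress, fell on all 5 days and most on day 20, at -1.18 ± 0.095 (adjusted p = 4.37e-10).

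Rab9 and Rab9b, which return receptors from late endosomes to the Golgi, were lower on day 20. Rab9 changed by -0.58, and Rab9b, detected on 5 arrays and on none of day 20, was at least 1.25-fold lower. The mean of the Rab9 probes turned to 0.061 on day 20, not called. Rab12, which directs receptors to lysosomes, rose on days 4 to 16 with its highest change on day 12 (0.93 ± 0.097). Rab24, an autophagy Rab, fell on all 5 days (-0.46 on day 8 and -0.90 on day 20), and Rab34, which positions lysosomes and acts in cilia, rose on all 5 (0.77 and 0.66). Rab24 lost its calls of days 8 and 16 with arrays centred on medians (-0.344 and -0.369), and that of day 16 with the mean of its probes (-0.02). Rab34 lost its calls of days 12, 16 and 20 with arrays centred on medians (0.323, 0.301 and 0.253) and with the mean of its probes (0.141, 0.103 and 0.13). Of the 9 genes, 2 rose and 6 fell on day 8 (median -0.461), and 1 rose and 6 fell on day 20 (median -0.678). All genes had shares of 29.3% higher and 33.9% lower on day 8, and 29.3% and 38.7% on day 20.

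All 6 measured exocytosis Rabs were called lower on day 8 than on day 0, with a median of -0.582 (33.9% of all genes were called lower), although with arrays centred on medians Rab8a turned to 0.007, Rab8b (-0.119) and Rab10 (-0.273) lost their calls, and with the mean of probes Rab10 was 0.002, not called. Rab8b also lost its call with the authors' value table (-0.257). Rab3d, a Rab of secretory granules, read 9.17 and 9.17 on day 0, 7.33 and 7.29 on day 4, 7.31 and 7.33 on day 8, 9.12 and 8.98 on day 12, 8.49 and 8.47 on day 16 and 8.41 and 8.58 on day 20. The 4 arrays of days 4 and 8 formed a separate low group, at -1.86 ± 0.097 (adjusted p = 4.36e-13) and -1.85 ± 0.097 (adjusted p = 4.75e-13), and day 12 was back at -0.12, not called. Rab3a, which acts in vesicle release at synapses, was -0.79 ± 0.12 on day 8 and 0.36 ± 0.12 on day 12, the latter call lost with arrays centred on medians (0.294) and with the mean of its probes (0.225). Rab13, known from tight junctions, had -1.02 ± 0.14 (adjusted p = 2.07e-06) on day 8.

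Rab8a, which carries cargo from the Golgi to the surface, was -0.18 on day 8 and -1.26 ± 0.075 (adjusted p = 2.7e-12) on day 20. Rab8b, its relative, was -0.33 and -0.02, the latter not called. Rab10, of the same route, was -0.37 and -0.42 from its brightest probe, while its other probe changed by 0.373 and 0.657, called higher. On day 20, 4 of the 6 fell and none rose (median -0.548), where 38.7% of all genes were called lower and 29.3% higher.

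Among the 4 remaining members, Rab23, a regulator of Hedgehog signalling and cilia, rose on all 5 days. It read 5.83 and 5.65 on day 0, 7.23 and 7.24 on day 4, 7.30 and 7.16 on day 8, 6.99 and 6.94 on day 12, 7.08 and 7.11 on day 16 and 6.09 and 6.39 on day 20. Arrays of days 4 to 16 were all above the day 0 pair by more than the spread within a day, at 1.498 ± 0.14 (adjusted p = 3.89e-09), 1.49 ± 0.14 (adjusted p = 4.24e-09), 1.23 ± 0.14 (adjusted p = 1.86e-07) and 1.36 ± 0.14 (adjusted p = 6.33e-08), and day 20 was 0.50 ± 0.14, a call lost with arrays centred on medians (0.332). A dimmer Rab23 probe, detected on 8 arrays, was not above background on day 8 and changed by 1.09 on day 20. Rab39b, a neuronal Rab, was 0.46 on day 8 and 0.87 on day 20, both called. Rab40c, which works with a ubiquitin ligase, was -0.41 on day 8 and 0.63 on day 20, calls that were both lost with arrays centred on medians (-0.32 and 0.221). Rab28, of cilia and photoreceptors, was -0.44 on day 20 and 0.26 on day 16, the latter call lost with arrays centred on medians (0.089) and with the authors' value table (0.231).

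**Figure D2:**
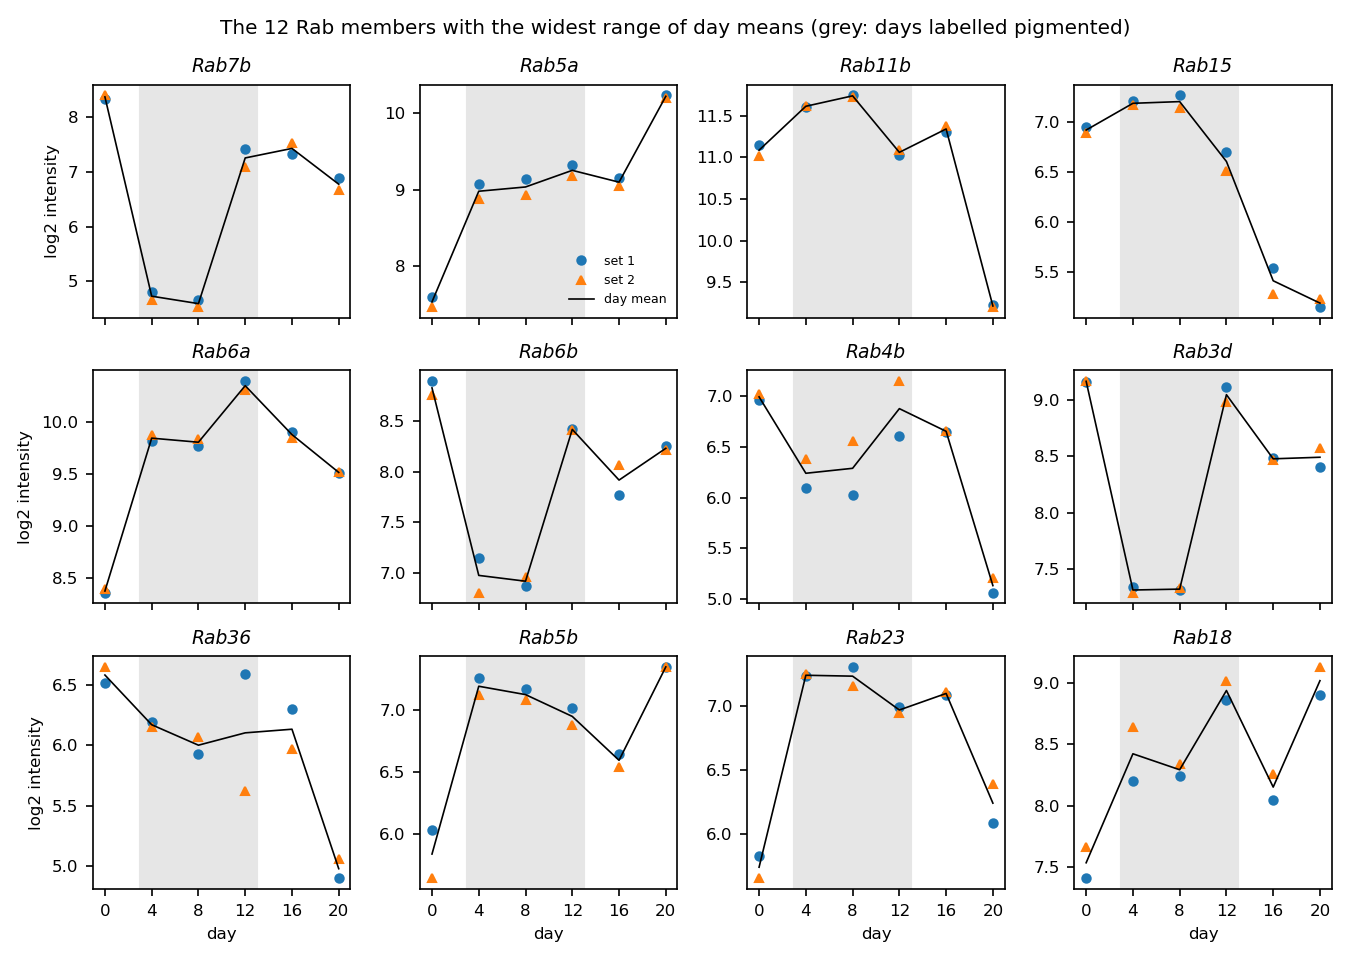
Normalized log2 intensity (y axis, with its own range in each panel) against day (x axis) for the 12 members with the widest range of day means. Circles are set 1, triangles set 2, the line joins the day means, and grey marks the days labelled pigmented. Rab7b, Rab6b and Rab3d drop on days 4 and 8, Rab11b, Rab4b and Rab36 are lowest on day 20, and Rab5a, Rab5b and Rab18 are lowest on day 0.

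Members with a called, fitted change of at least 2-fold are given here for each day, beside the share of all genes with one. On day 4, 6 rose (Rab1b, Rab5a, Rab5b, Rab6a, Rab11a and Rab23) and 3 fell (Rab3d, Rab6b and Rab7b), 9 of 44 where 20.1% of all genes changed as much. On day 8 the same 6 rose and 6 fell, the other three being Rab13, Rab22a and Rab31 (20.1% of all genes). Day 12 had 6 higher (Rab5a, Rab5b, Rab6a, Rab11a, Rab18 and Rab23) and only Rab7b lower (9.11%). Day 16 had 4 higher (Rab5a, Rab6a, Rab11a and Rab23) and only Rab15 lower (6.63%). On day 20, 4 rose (Rab5a, Rab5b, Rab6a and Rab18) and 8 fell (Rab4b, Rab7b, Rab8a, Rab11b, Rab15, Rab22a, Rab29 and Rab36), where 26.2% of all genes changed as much. The fitted change of Rab30 on day 20 also passed 2-fold. It is not counted there because its day 0 arrays were not above background and its bound is 1.72-fold. The 26.2% of all genes counts every called fitted change, without such an exclusion. Rab5a and Rab6a were the members past 2-fold on all 5 days.

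Further members past 2-fold on day 4 were Rab1b at 1.20 ± 0.10 (adjusted p = 1.22e-09), Rab5b at 1.35 ± 0.14 (adjusted p = 2.97e-08), Rab6a at 1.46 ± 0.076 (adjusted p = 4.83e-13), Rab6b at -1.84 ± 0.12 (adjusted p = 2.78e-11) and Rab11a at 1.08 ± 0.13 (adjusted p = 1.6e-07). Rab11a was 1.16 ± 0.13 (adjusted p = 5.61e-08) on day 8, 1.23 ± 0.13 (adjusted p = 6.04e-08) on day 12 and 1.06 ± 0.13 (adjusted p = 6.64e-07) on day 16. Rab5b was 1.10 ± 0.14 (adjusted p = 1.15e-06) on day 12. Rab6a was 1.496 ± 0.076 (adjusted p = 2.34e-12) on day 16 and 1.14 ± 0.076 (adjusted p = 2.11e-11) on day 20. Rab31 was -1.02 ± 0.072 (adjusted p = 6.7e-11) on day 8. In all 58 fitted changes of this size, Rab30 included, the 2 arrays of one day did not overlap with those of the other, and both sets gave the same sign. These changes were chosen by size and call in the same arrays, so this is not independent support for them.

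**Figure D3:**
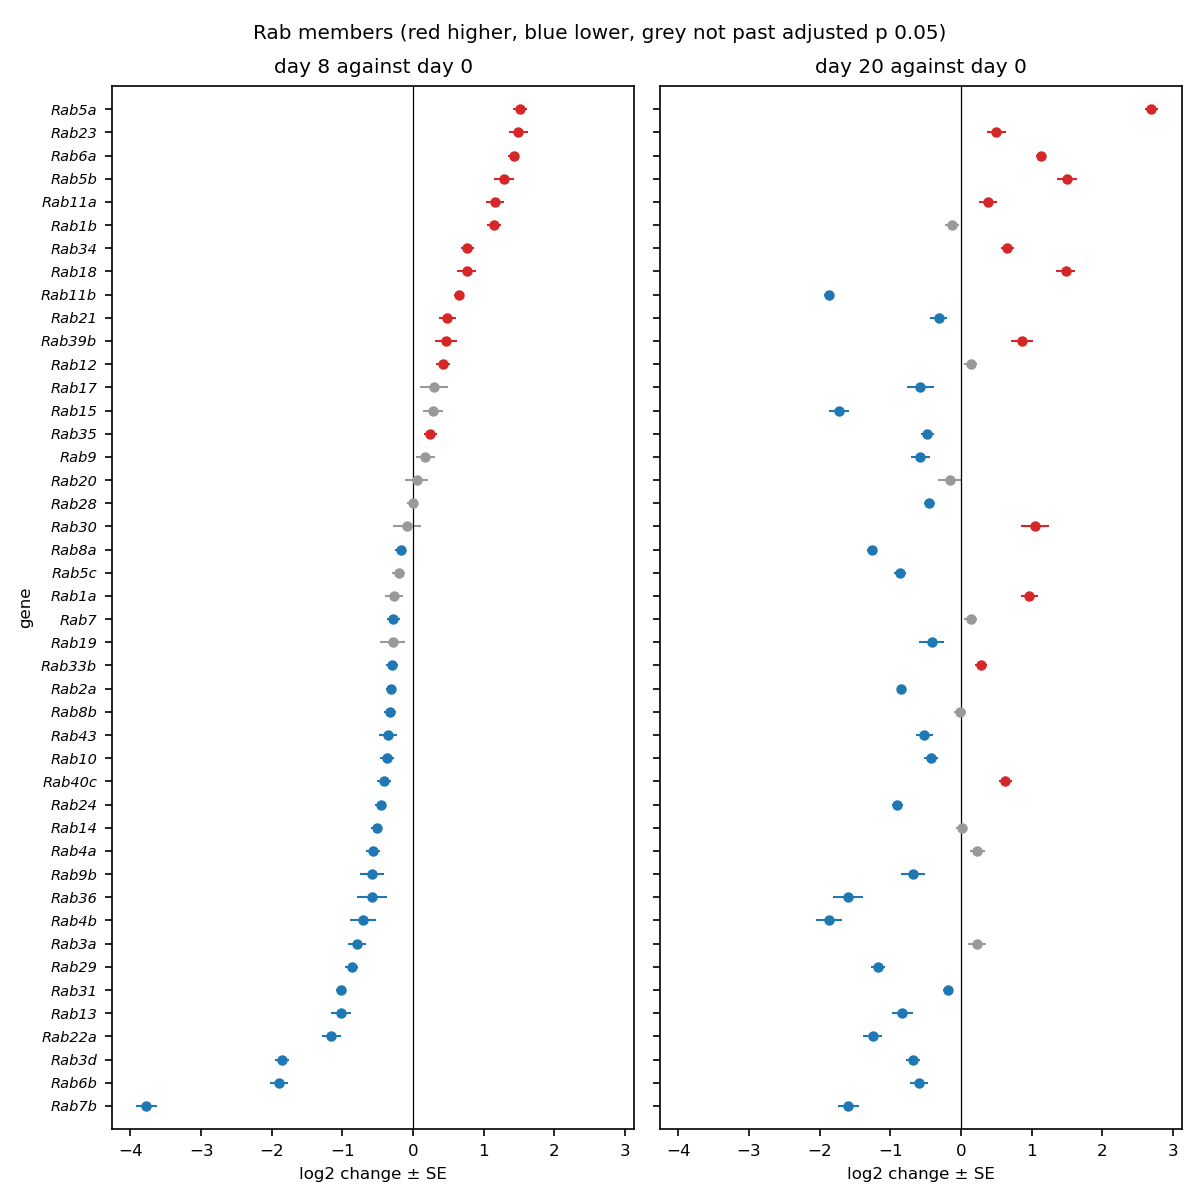
Log2 change with its SE (x axis) of each of the 44 members (y axis, ordered by the day 8 change) on day 8 and on day 20 against day 0. Red and blue mark changes past the adjusted p of 0.05, grey those not past it. On day 8, 13 members are red and 22 blue; on day 20, 12 are red and 24 blue, and Rab11b is among those that changed colour. Points of Rab7b, Rab9b, Rab19 and Rab30 on day 8, and of Rab9b, Rab17, Rab19, Rab20 and Rab30 on day 20, are fitted values with at least 1 of the days compared not above background.

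From day to day, the members did not move evenly. Between day 4 and day 8 no member was called by limma, nor any gene (0% of all genes), and at an unadjusted p under 0.05 there were 0 members and 307 genes. Between day 8 and day 12, 19 members rose and 9 fell (53.4% of all genes called, 27.2% higher and 26.2% lower), with 4 past 2-fold, all higher (10% of all genes). These were Rab3a at 1.16 ± 0.12 (adjusted p = 7.35e-08), Rab3d at 1.74 ± 0.097 (adjusted p = 4.58e-12), Rab6b at 1.49 ± 0.12 (adjusted p = 1.9e-09) and Rab7b, at least 5.15-fold higher (adjusted p = 4.77e-12). With arrays centred on their medians the split was 11 higher and 10 lower.

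Between day 12 and day 16, the step with the replating, 8 members rose and 14 fell (40.4% of all genes called, 20.7% higher and 19.7% lower), or 4 and 11 with arrays centred on medians. Rab15 alone passed 2-fold, at -1.19 ± 0.14 (adjusted p = 8.68e-07) (4.52% of all genes). Between day 16 and day 20, both labelled depigmented, 14 rose and 21 fell (65% of all genes called, 29.9% higher and 35% lower), with 1 higher and 5 lower by at least 2-fold (22.8%). Rab5a rose by 1.13 ± 0.097 (adjusted p = 1.32e-09). Rab30, not above background on day 16, was at least 1.77-fold higher and is not counted among these, while the 22.8% excludes no such gene. Rab11b changed by -2.12 ± 0.07 (adjusted p = 1.35e-16), Rab4b by -1.52 ± 0.19 (adjusted p = 2.48e-07), Rab8a by -1.21 ± 0.075 (adjusted p = 5.88e-12), Rab22a by -1.11 ± 0.13 (adjusted p = 2.34e-07) and Rab36 by -1.15 ± 0.22 (adjusted p = 6.94e-05). Centred on medians, the split for this step was 8 higher and 21 lower, with a shift of -0.194 in the median of all genes.

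Members with related sequence often differed. By the brightest probe, Rab6a rose and Rab6b fell on all 5 later days, though probes of Rab6a had opposite calls on days 4, 8 and 16. Rab5a and Rab5b rose on all 5, and Rab5c was not called higher on any. Rab11a and Rab11b both rose on days 4 and 8, then stood at 0.38 and -1.87 on day 20. Rab4a and Rab4b were 0.23 and -1.86 on day 20, Rab1a and Rab1b 0.97 and -0.13, and Rab8a and Rab8b -1.26 and -0.02. Rab3a and Rab3d fell together on days 4 and 8, by different amounts (-0.79 and -1.85 on day 8). Differences between relatives were not tested, and cross-hybridization between relatives cannot be judged, as probe sequences were not used here.

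**Figure D4:**
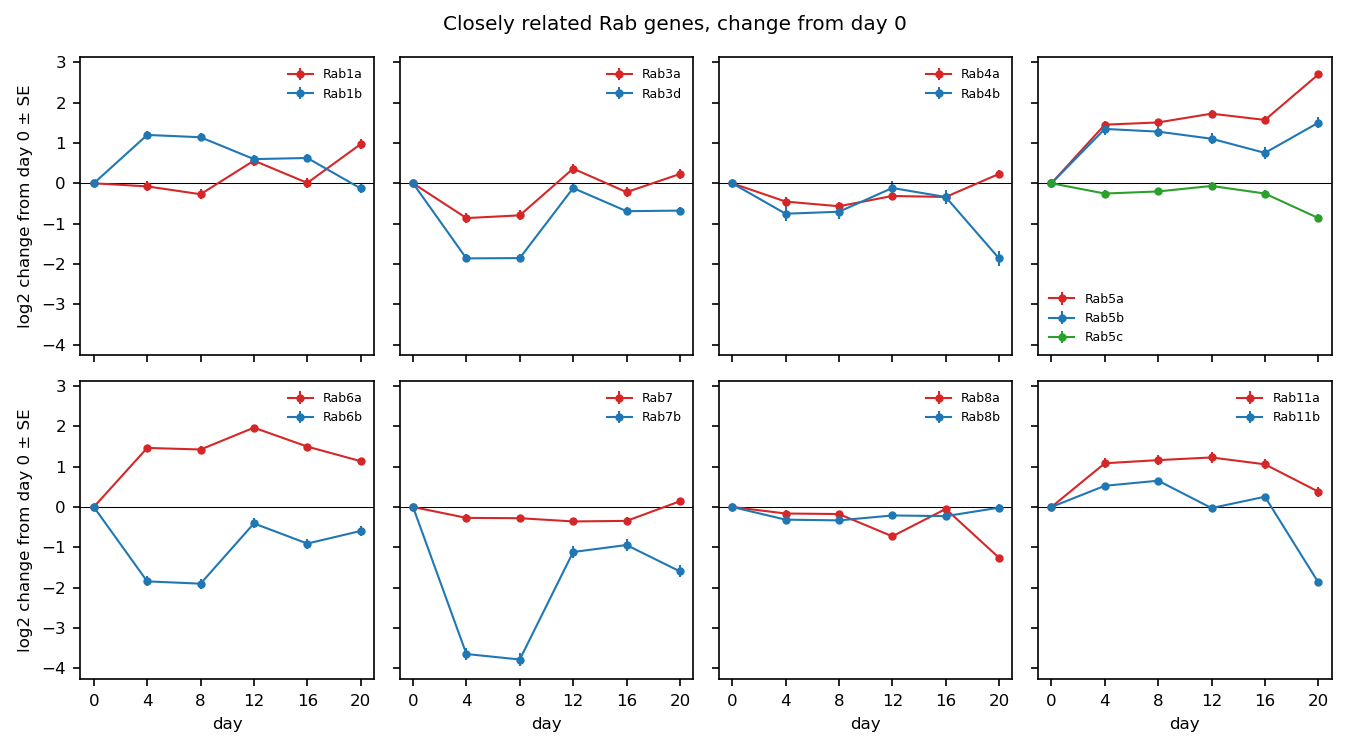
Log2 change from day 0 with its SE (y axis) against day (x axis) for 8 sets of related members, 1 panel per set. The panels of Rab6a and Rab6b, of Rab7 and Rab7b and of Rab5a, Rab5b and Rab5c show lines that part by day 4, and those of Rab4a and Rab4b and of Rab11a and Rab11b part most at day 20.

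Different probes of a gene did not always give the same change. Of 44 members, 20 had more than 1 detected probe, and all detected probes were tested in 1 fit of 22978 probes (58.1% called on day 8 and 64.3% on day 20). On day 8, 4 of the 20 had probes called in opposite directions (Rab6a, Rab7, Rab10 and Rab22a), and 4 had all probes called the same way (Rab3a, Rab7b, Rab8b and Rab13). On day 20, 3 had opposite calls (Rab9, Rab10 and Rab43), and 7 had all probes called one way (Rab1a, Rab7b, Rab8a, Rab13, Rab17, Rab23 and Rab24). The agreement of the Rab7b probes on day 8 and of the Rab17 probes on day 20 sets detected arrays of day 0 against undetected ones. For Rab7, the brightest probe was -0.278 on day 8 and 0.141 on day 20, and 2 dimmer probes, detected on all 12 arrays, were 2.13 and 1.17 on day 8 and 2.14 and 1.29 on day 20.

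For Rab6a, the second brightest probe rose more than the one used (2.56 on day 8 and 3.92 on day 20), and the others were -0.526 and -0.019 on day 8. For Rab5a the second probe gave 1.03 and 1.87 and the third -0.022 and 0.182 on days 8 and 20. Rab22a had a second probe close to the first (-1.04 and -1.43), and the opposite call on day 8 rested on a dim probe, detected on 3 arrays and on neither array of day 0. Rab14, small in its brightest probe, had a dimmer probe, detected on all 12 arrays, at 1.65 on day 20. Which transcripts each probe reads was not tested.

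**Figure D5:**
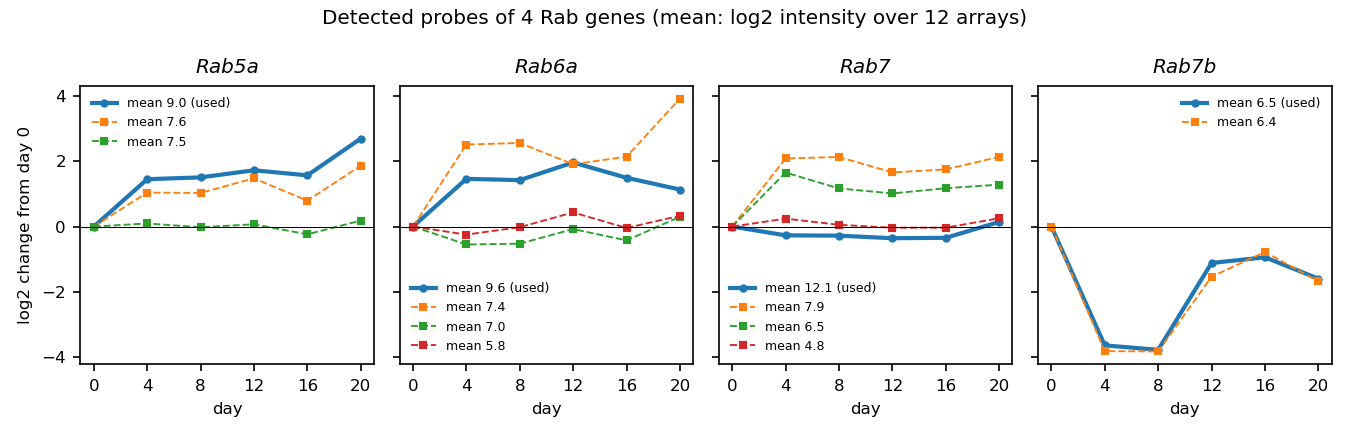
Log2 change from day 0 (y axis) against day (x axis) for each detected probe of Rab5a, Rab6a, Rab7 and Rab7b, with the probe's mean log2 intensity over 12 arrays in the legend. The thick line is the probe used. Both Rab7b probes follow 1 course and were undetected on days 4 and 8, and the probes of Rab7 and Rab6a part by more than 2 log2 units.

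No member passed the test between the days labelled pigmented and those labelled depigmented. With the 6 day means as samples (3 against 3), limma called 0 members, and 33 of all genes (0.288%). At an unadjusted p under 0.05 there were 4 members: Rab31 at -0.702 ± 0.213 (adjusted p = 0.337), Rab7b, undetected on days 4 and 8, at -2 ± 0.769 (adjusted p = 0.404), Rab1b at 0.813 ± 0.322 (adjusted p = 0.406) and Rab15 at 1.16 ± 0.489 (adjusted p = 0.419). The label belongs to a day, so the 2 arrays of a day are not separate replicates of it. Treating the 12 arrays as replicates called 6 members, with 16.9% of all genes called in that setting: Rab1b, Rab11a, Rab15 and Rab23 higher and Rab7b and Rab31 lower in pigmented days.

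The references Rab27a, Rab32 and Rab38 were highest on days 4 or 8 and lowest on day 20. Rab27a was 1.75 on day 8 and -0.45 on day 20, Rab32 2.15 and -0.75, and Rab38 0.48 and -1.72. The same order was seen in 7 of 44 members (15.9%, beside 14.8% of all genes): Rab1b, Rab9, Rab11b, Rab15, Rab17, Rab21 and Rab35. Another 6 (13.6%, beside 10.6%) were highest on day 0 and lowest on days 4 or 8: Rab3d, Rab6b, Rab7b, Rab8b, Rab13 and Rab31. Highest on day 0 and lowest on day 20 were 8 (18.2%, beside 9.95%), and lowest on day 0 and highest on day 20 were Rab5a, Rab5b, Rab18 and Rab39b (9.09%, beside 7.36%). These are counts of day means without a test.

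Most genes that switch, anchor or read Rabs changed too. Of 153 listed regulators 131 were measured, and 120 (91.6%, beside 84.7% of all genes) changed over the 6 days by the limma F test. Against day 0, 41 rose and 56 fell on day 4, 43 and 56 on day 8, 37 and 39 on day 12, 29 and 46 on day 16, and 47 and 53 on day 20. Of all genes, 29.5% were higher and 34% lower on day 4, and 29.3% and 33.9% on day 8. The shares were 22.8% and 29.5% on day 12, 20.9% and 26.6% on day 16, and 29.3% and 38.7% on day 20. The median change of the regulators was -0.0749 on day 8 and -0.0672 on day 20, beside -0.0356 and -0.114 over all genes. Between pigmented and depigmented days limma called 0 regulators and 33 of all genes, with 14 and 1360 at an unadjusted p under 0.05.

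On day 8 the largest regulator changes were Sbf2, an exchange factor, at -2.62 ± 0.16 (adjusted p = 4.86e-12), and melanophilin (Mlph), the Rab27a effector, at 2.44 ± 0.16 (adjusted p = 1.93e-11). Gdi2, a dissociation inhibitor, rose by 2.23 ± 0.16 (adjusted p = 9.12e-11). Rab11fip5, a Rab11 effector, was -2.13 ± 0.10 (adjusted p = 8.64e-14), Micall2, a Rab13 effector, -2.08 ± 0.076 (adjusted p = 1.31e-15), and Trappc6a, a subunit of the TRAPP tether, -1.99 ± 0.098 (adjusted p = 1.93e-13). Gdi2, Mlph and Sbf2 were also the largest on day 16, at 1.93, 1.29 and -1.56, followed by Tbc1d2, a GTPase-activating protein for Rab7, at -1.15, Trappc6a at -1.13 and Rab11fip5 at -1.12. On day 12, Gdi2 was 2.72, Mlph 1.62, Trappc2, a TRAPP subunit, 1.23, Sbf2 -1.18 and Rab3il1, an exchange factor, -1.10, and Tbc1d12 was at least 1.81-fold higher.

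Day 20 had another set at the top. Trappc12 and Trappc13, both TRAPP subunits, moved in opposite directions, at 2.70 ± 0.12 (adjusted p = 2.58e-14) and -2.45 ± 0.13 (adjusted p = 3.03e-13). Tbc1d20, a GTPase-activating protein for Rab1, rose by 2.50 ± 0.097 (adjusted p = 2.6e-15). Rims2, a Rab3 effector, was -2.38 ± 0.14 (adjusted p = 3.56e-12), Rin3, an exchange factor for Rab5 proteins, -2.26 ± 0.12 (adjusted p = 2.34e-13), and Tmf1, a Golgi protein that binds Rab6, 1.82 ± 0.11 (adjusted p = 3.28e-12). Exchange factors, GTPase-activating proteins and effectors each had members in both directions on day 20, with 18 higher and 15 lower of 44, 12 and 15 of 35, and 14 and 23 of 47. Of all genes, 29.3% were called higher and 38.7% lower on that day.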

How the data were processed

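Total RNA of B16 cells was labelled with biotin and hybridized to Illumina mouse bead arrays, per the labels' protocols. The deposited signal table holds linear intensity per probe, not scaled between arrays, and a detection p-value per probe, per the file headers; detection p-values are multiples of 1 over 936 negative controls. A second deposited table (the authors' value table) holds intensity, a straight-line transform of each signal column with values below 0, found from the values; its direction is that of the signals and no column was left unused. Values of that table below 16 were set to 16 before log2, which limits what this alternative shows for dim probes. For days 4, 12 and 20 the set numbers are exchanged between the tables, and those of the signal table were used. Array software was not given in the sources used here.

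Signals were background corrected, quantile normalized and put on the log2 scale with neqc (limma 3.58.1, R 4.3.3, offset 16); bead summaries leave background to be estimated from detection p-values, which limits weak probes. Of 45281 probes, 34885 had 1 symbol in the platform annotation, 18 several and 10378 none; 34807 were found in RefSeq, with 0 symbols updated. The 22978 probes detected on at least 2 arrays gave 11470 genes, each by its brightest probe. Days were compared with lmFit and eBayes (intensity trend, two-sided, Benjamini-Hochberg over all genes at 0.05), pigmentation labels on day means. The scripts were tested on simulated data. Members, role and regulator lists and tests were chosen with earlier results of these data known. Every member is named, array values are given for the 12 with the widest range of day means, and statistics for called changes of at least 2-fold. Alternatives covered background, scaling, source table, probe filter and choice, trend, density label, set block and leaving out each array.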

Additional observations from a re-analysis of the deposited data

How the results depend on the processing

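Of 11 counts of members, 10 stayed within 1.5 times of the reported value in each alternative that gave a value, and all 58 fitted changes of at least 2-fold kept direction and call in each of the 22 alternatives that measured the gene (a filter on detection on all 12 arrays removed Rab7b and Rab30). The exception was pigmented against depigmented: 0 members called on day means, 6 with the 12 arrays not averaged, 4 with the replicate block of the signal table's set numbers and 3 with that of the value table's (chosen after seeing the data). All genes called there were 33, and 1938, 1500 and 1430 in those settings, and 6 with the authors' value table. Set numbers were not used to pair the samples in the main fit. Differences between the 2 sets of a day correlated between -0.0294 and 0.267 over 15 pairs of days, over 0.1 in 8. With the value table's set numbers they correlated between -0.267 and 0.112, over 0.1 in 2. Whether the sets share an effect between days was not tested, and the block moved no other count past 1.5 times. Leaving out each array in turn gave 42 to 43 members over the 6 days, 29 to 36 on day 4, 30 to 35 on day 8, 22 to 28 on day 12, 18 to 28 on day 16 and 31 to 37 on day 20, and 0 for pigmentation. The 58 changes were chosen by size and call in these same arrays, so keeping them is not independent support. Alternatives without the intensity trend or with a replicate block could alter only their calls, not their directions. Calls under 2-fold were not all kept. Median centring lost 59 of them and turned 3 more (Rab8a on day 8, Rab33b on day 20, Rab8b between days 16 and 20). The authors' value table lost 31. The mean of probes lost 21 and turned 10, of which 6 were called the other way (Rab7 on days 4, 8, 12 and 16, Rab10 on day 12, Rab6a between days 16 and 20). Dim members had smaller changes without background correction: Rab15 was -0.866, Rab36 -0.733, Rab4b -0.937, Rab5b 0.884 and Rab30 0.406 on day 20, and Rab23 0.854 on day 8. The mean of probes gave 0.401 for Rab1b, -0.57 for Rab22a and 0.63 for Rab23 on day 8 and 1.06 for Rab6a on day 12. The cause of these differences was not tested. With 2 arrays per day, the number of arrays and the signal over background limit the precision.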
